A study of Rattus norvegicus with 10 samples.

Results

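The let-7 opposite strands are the minor arms of the let-7 hairpins, named with an asterisk on the array. Those bright enough to test were rno-let-7a-2*, rno-let-7c-1*, rno-let-7d* and rno-let-7i*, and the prefix rno, for rat, is left out below. They were chosen by name alone, as every rat probe whose name begins with let-7 and ends with an asterisk. Of 679 rat miRNA probes, 9 met this rule, and they carry 10 names because the let-7a-1* and let-7c-2* strands share 1 probe. The guide strands, the major arms of the same hairpins, were read from 8 probes (let-7a, let-7b, let-7c, let-7d, let-7e, let-7f, let-7i and the related miR-98).

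Total RNA came from the medial prefrontal cortex (mPFC) of 5 rats given chronic morphine and 5 given saline, and each rat was read on an array of its own. All were wild-type male Sprague Dawley rats, 2 months old. Morphine rats were injected intraperitoneally 2 times per day for 5 days, with 10, 20 and 30 mg/kg per injection on the first 3 days and 40 mg/kg on the last 2, and saline rats followed the same schedule with saline. Intensities below are background-subtracted spot values averaged over the 4 spots of a probe and scaled between arrays. A value of 30 was the detection minimum, and lower values were set to 30 before log2. Because the tissue was taken whole, fewer cells of a type and less RNA per cell cannot be told apart.

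Each let-7 hairpin is cut by Dicer into a short duplex of both arms. The guide arm is usually kept by Argonaute and represses growth-promoting mRNAs, and it is abundant in mature brain, while the opposite arm is mostly degraded. An opposite strand that escapes degradation has its own seed, the stretch near its 5′ end that pairs with target mRNAs, and so reads a different set of targets.

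The strands on which the results turn are shown first, to show how far the arms and the family members differ in sequence, with the seed (bases 2 to 8) in capitals. Sequences were taken from RefSeq (GRCr8), which matched 9 of the 10 opposite strand names and all 8 guide names. let-7c-1* was not among the matches.
let-7a-2*: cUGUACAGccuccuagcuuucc
let-7d*: cUAUACGAccugcugccuuucu
let-7i*: cUGCGCAAgcuacugccuugcu
let-7e*: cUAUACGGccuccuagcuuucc
let-7a: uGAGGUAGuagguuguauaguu
let-7c: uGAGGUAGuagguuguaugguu
let-7d: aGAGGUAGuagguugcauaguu
let-7i: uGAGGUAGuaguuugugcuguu
The 8 guide strands shared 1 seed, whereas the 9 matched opposite strands carried 6 seeds. UAUACAA was shared by let-7a-1*, let-7b*, let-7c-2* and let-7f-1*. let-7a-2* and let-7e* were identical at 20 of 22 positions and differed within the seed. let-7a-2* and let-7d* were identical at 15 of 22, and let-7a-2* and let-7i* at 13 of 22. The guide strands let-7a and let-7c were identical at 21 of 22 positions, so that each guide probe may bind some RNA of its relatives, and the guide values below are uncertain to that extent.

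The strands come from separate places in the genome (GRCr8). let-7a-2* lies at chr8:50805264-50805285 on the plus strand, within a long noncoding RNA gene (Lnc215) and within 50000 bases of the miR-100 and miR-125b-1 genes, with the miR-3596a gene on the other DNA strand of the same hairpin. The let-7c-1 hairpin lies at chr11:29688112-29688205, close to the miR-99a, miR-125b-2 and miR-3588 genes. let-7d* lies at chr17:16322327-16322348 on the plus strand, in a cluster with let-7a-1 and let-7f-1 and with the miR-3596b gene on the other DNA strand. let-7i* lies at chr7:60527879-60527900 on the minus strand, with no other miRNA gene within 50000 bases. The let-7a guide is made from the let-7a-1 and let-7a-2 hairpins and the let-7c guide from the let-7c-1 and let-7c-2 hairpins, so these guide probes do not report on 1 hairpin each.

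The arrays of the groups differed beyond the let-7 family. The median local background was 63 to 141 on morphine arrays and 84 to 348 on saline arrays, and 260 to 419 rat probes reached 30 on morphine arrays, against 180 to 281 on saline arrays. All 5 neuron-enriched miRNAs examined (miR-9, miR-124, miR-128, miR-137 and miR-218a) were higher in morphine rats, and their summed scaled intensity was 31321 to 104679 on morphine arrays and 507 to 1349 on saline arrays. On every saline array miR-9, miR-128, miR-137 and miR-218a were below 30, although the tissue is labelled as cortex. All 3 connective tissue markers (miR-199a-5p, miR-199a-3p and miR-214) were lower in morphine rats, with a summed scaled intensity of 398 to 4725 on morphine arrays and 8980 to 18944 on saline arrays. Of the other marker lists, all tested members for endothelium (2), red blood cells (2), leukocytes and microglia (3) and oligodendrocytes (1) were also higher in morphine rats, 1 of 2 for skeletal muscle was lower, and 0 of 2 for smooth muscle passed. The neuron-enriched and connective tissue sums separated the groups on every array, whereas the local background and the number of probes at 30 overlapped. Treatment and these differences cannot be told apart, and their part in the let-7 results was not tested.

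Of the 9 opposite strand probes, 4 reached 30 on at least 5 of the 10 arrays and were tested. Among them let-7a-2* was 3.98-fold lower in morphine rats. let-7c-1* was higher in morphine rats, by an amount that depends on the floor because 3 of 5 saline arrays lay below 30, and let-7d* and let-7i* did not pass the test. The tests covered all 301 rat probes that met this filter, with limma and Benjamini-Hochberg adjustment at 0.05. Over all of them 32.6% were called higher and 11.6% lower in morphine rats, beside 1 of 4 opposite strands in each direction, a share near that background. The median log2 fold change of the 4 was -0.14, and that of the 301 probes was 0.45.

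The scaled intensity of let-7a-2* was 545, 270.4, 287, 984 and 278 on morphine arrays 1 to 5. It was 1192, 1391, 1529, 1052 and 4329 on saline arrays 1 to 5. Every morphine array lay below every saline array, with morphine array 4 nearest to the saline range and saline array 5 far above its group. let-7a-2* averaged 473 ± 308 in morphine rats and 1899 ± 1371 in saline rats (SD, n = 5 each). The log2 fold change was -1.99 (SE 0.54, 95% interval -3.16 to -0.82, limma adjusted p = 0.0103). An exact permutation test on the log2 values gave p = 0.00794, the smallest p that 5 arrays against 5 allow. Lower values without overlap were found for 8.31% of all tested probes. The 4 spots of the probe differed by a median coefficient of variation of 14.5% within an array, and no negative control probe read above let-7a-2* on any array. let-7a-2* ranked 20th from the lowest log2 fold change among the 301 probes. let-7e*, the strand nearest to it in sequence, had no scaled intensity above 1 on any array. The call of let-7a-2* held with each array left out in turn (log2 fold change -2.31 to -1.64). It was lost with the per-probe test of the methods on the linear scale (adjusted p = 0.195).

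The scaled intensity of let-7c-1* was 88.7, 179, 95.0, 453 and 127 on morphine arrays 1 to 5. It was 36.9, -21.3, 57.6, -97.1 and -117 on saline arrays 1 to 5. All 5 morphine arrays reached the detection minimum and lay above all saline arrays, of which 2 reached it, and morphine array 4 stood far above the others of its group. let-7c-1* averaged 189 ± 152 in morphine rats and -28.2 ± 78.0 in saline rats (SD, n = 5 each). With the floor of 30, the log2 fold change was 2.11 (SE 0.51, 95% interval 1.01 to 3.22, limma adjusted p = 0.00506). The exact permutation test gave p = 0.00794. With only 2 saline arrays at 30, the probe met the filter of 5 arrays through the morphine arrays. Its p-values and its lack of overlap are therefore not independent of the filter. The filter on all 10 arrays left the probe out. Higher values without overlap were found for 21.3% of all tested probes. Because 3 saline arrays sat at the floor, the size of this change follows the floor chosen, and it was 3.07 with a floor of 10 and 0.67 with a floor of 100, where the call was lost (adjusted p = 0.23). The call was also lost with normexp background correction (0.16, limma adjusted p = 0.701), with quantile or loess normalization and with a negative-control baseline. The per-probe test of the methods lost it too (adjusted p = 0.436), while the limma call held with each array left out in turn (1.71 to 2.31). The spots of the probe varied by a median of 34.5% within the 7 arrays at or above 30.

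**Figure D1:**
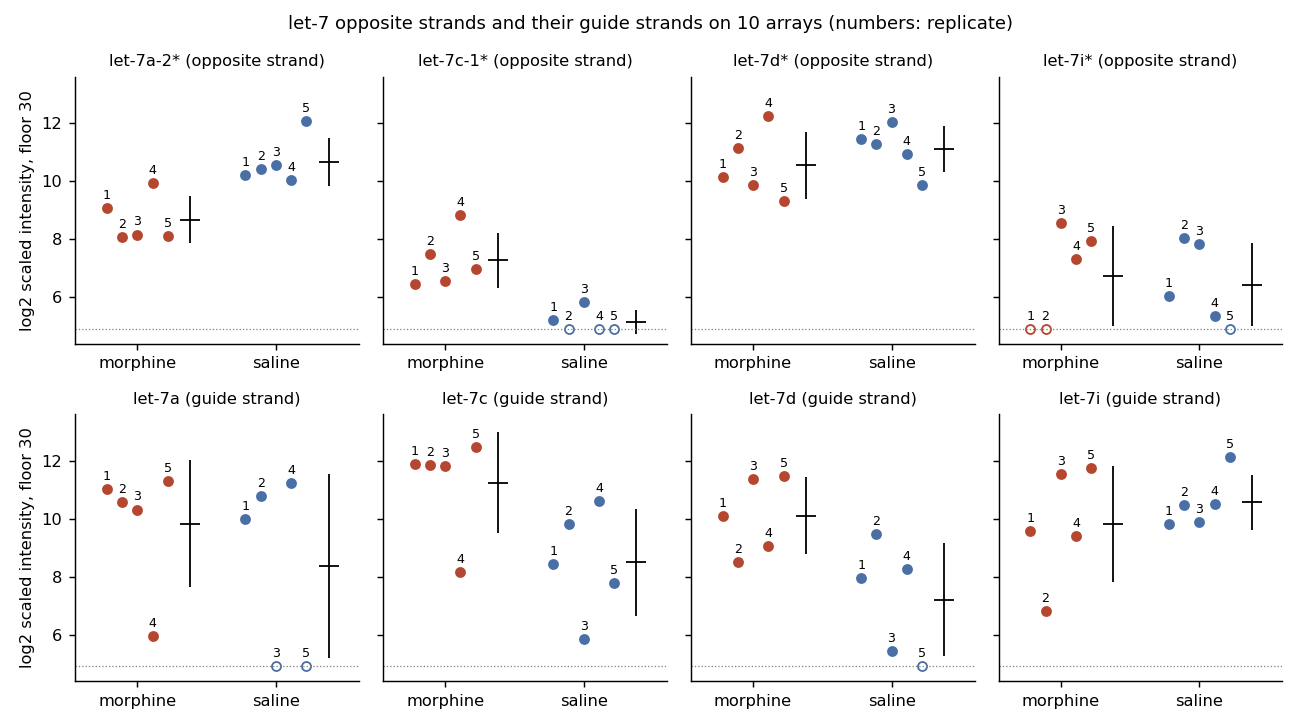
Log2 scaled intensity (floor 30, dotted line) of the 4 tested opposite strands (top) and the guide strand of the same hairpin (bottom) on 5 morphine and 5 saline arrays; numbers give the replicate, open circles are values set to the floor, and black marks show the mean ± SD of each group. let-7a-2* is lower on every morphine array and let-7c-1* higher, and morphine array 4 is the highest of its group for let-7a-2*, let-7c-1* and let-7d* and the lowest for let-7a and let-7c.

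let-7d* did not separate the groups. Its scaled intensity was 1129, 2281, 941, 4888 and 640.2 on morphine arrays 1 to 5. It was 2815, 2499, 4260, 1955 and 942 on saline arrays 1 to 5. The morphine arrays spanned the whole saline range. The log2 fold change was -0.57 (SE 0.61, 95% interval -1.89 to 0.75, limma adjusted p = 0.499), an interval that covers changes in both directions. With array weights let-7d* was called lower (log2 fold change -1.23, limma adjusted p = 0.045).

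let-7i* was dim and uneven in both groups. Its scaled intensity was 21.9, 24.7, 376, 160.1 and 245 on morphine arrays 1 to 5. It was 65.2, 263, 230.5, 40.8 and -41.5 on saline arrays 1 to 5. Low and high arrays occurred in each group, and its spots varied by a median of 52.4% within an array. The log2 fold change was 0.29 (SE 0.86, 95% interval -1.57 to 2.15, limma adjusted p = 0.796).

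The other 5 opposite strand probes stayed at or near background, and no test was made on them. let-7e*, let-7f-2* and the probe of let-7a-1* and let-7c-2* were below 30 on all 10 arrays. let-7b* reached 30 on 1 morphine and 1 saline array, with scaled intensities of 75.8 on morphine array 4 and 52.8 on saline array 5. let-7f-1* reached 30 on 2 morphine arrays and no saline array, and its highest scaled intensity was 65.6, on morphine array 4. On that array, the negative control probes also reached 166 (background-subtracted). Up to 7 of the 7 negative controls read above let-7b* or above the let-7a-1* and let-7c-2* probe on single morphine arrays, so neither was detectable above background on those arrays.

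**Figure D2:**
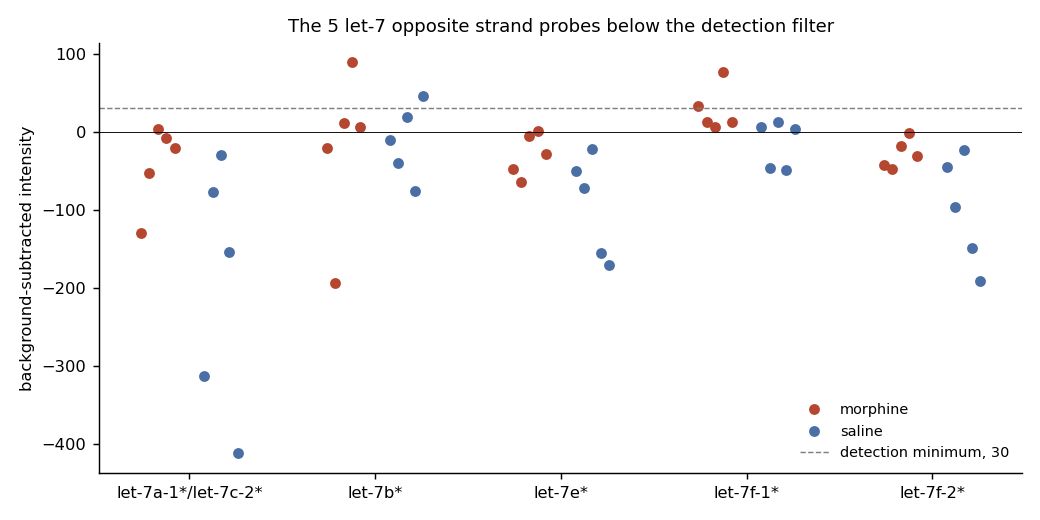
Background-subtracted intensity (before scaling) of the 5 opposite strand probes below the filter, with 5 morphine and 5 saline arrays for each; the dashed line is the detection minimum of 30. Only let-7b* (1 morphine and 1 saline array) and let-7f-1* (2 morphine arrays) cross it.

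Of the 8 guide strands, all tested, 5 were higher in morphine rats, 0 were lower and 3 did not pass, beside a background of 32.6% called higher. Their median log2 fold change was 1.79. These were let-7c (log2 fold change 2.75, adjusted p = 0.0330), let-7d (2.90, 0.0204), let-7e (1.18, 0.0307), let-7f (2.11, 0.0437) and miR-98 (2.50, 0.0330), all by limma. let-7f reached 30 on 4 morphine and 2 saline arrays and averaged 312 ± 236 in morphine rats and -27.5 ± 144 in saline rats (SD, n = 5 each), so its log2 fold change follows the floor. It was 2.74 with a floor of 10, where the call was lost, and 1.37 with a floor of 100. With only 2 saline arrays at 30, let-7f met the filter of 5 arrays mainly through the morphine arrays. Its p-value is therefore not independent of the filter. miR-98, which reached 30 on 5 morphine and 3 saline arrays, gave 2.84 and 1.81 with these floors, and its call was lost with the floor of 100. The count was 0 without morphine array 3, morphine array 5 or saline array 3, 1 or 2 without saline array 5, saline array 1 or morphine array 1, and 3 without morphine array 2, with the tested probes kept. It was 2 with normexp correction. The guide values spread widely within the groups. let-7c read 3807, 3743, 3653, 283 and 5744 on morphine arrays 1 to 5 and 346, 897, 57.1, 1553 and 221 on saline arrays 1 to 5, so that its groups overlapped through morphine array 4. let-7e was the only guide whose groups did not overlap, at 5528 to 10943 on morphine arrays and 2376 to 3992 on saline arrays. let-7a had a log2 fold change of 1.47 (adjusted p = 0.439), let-7b of -0.24 (0.796) and let-7i of -0.75 (0.524).

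**Figure D3:**
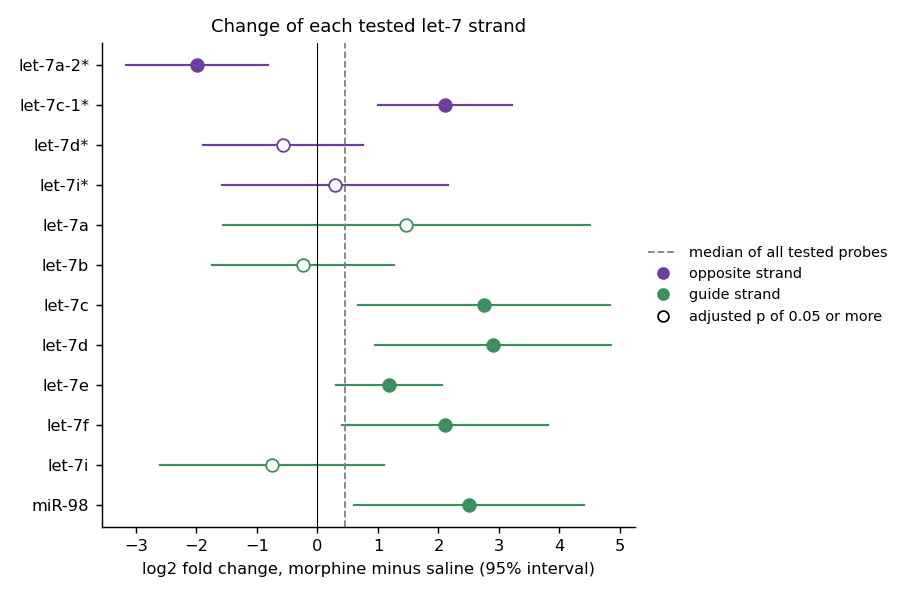
Log2 fold change (morphine minus saline) with its 95% interval for the 4 tested opposite strands (purple) and 8 guide strands (green), with filled circles for an adjusted p under 0.05 and a dashed line at 0.45, the median of all 301 tested probes. let-7a-2* is the only tested let-7 strand called lower, while let-7c-1* and 5 guides are called higher.

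Set beside its guide, let-7d* was the only opposite strand whose balance between arms passed the test. The log2 difference, opposite strand minus guide strand, was taken within each array, and only its change between groups is read, since the levels of different probes are not comparable. For let-7d* minus let-7d it was 0.03, 2.65, -1.49, 3.20 and -2.15 on morphine arrays 1 to 5. On saline arrays 1 to 5 it was 3.52, 1.82, 6.63, 2.67 and 4.97. The groups overlapped, with morphine arrays 2 and 4 inside the saline range. The mean was 0.45 ± 2.40 in morphine rats and 3.92 ± 1.91 in saline rats (SD, n = 5 each), a change of -3.47 (SE 1.19, 95% interval -6.05 to -0.89, limma adjusted p = 0.0349 over 63 rat pairs). Of all 63 pairs, 28.6% were called in this direction, and the median change over pairs was -1.03. The exact permutation test gave p = 0.0476 for this pair, and adjusted over the 63 pairs it was 0.107. The let-7d guide was called higher in morphine rats, while let-7d* did not pass on its own. The let-7d guide was at the floor on saline array 5 and near it on saline array 3 (scaled intensities of 24.7 and 43.0). These arrays had the highest differences. The call of the pair was lost when morphine array 1, 3 or 5 or saline array 1, 3 or 5 was left out (changes of -3.57 to -2.80, limma adjusted p = 0.0513 to 0.0948), and with normexp correction (-1.92, adjusted p = 0.138). A floor of 100 also removed the call (-2.88, limma adjusted p = 0.065).

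For let-7a-2* minus let-7a the change was -3.46 (SE 1.76, 95% interval -7.27 to 0.34, limma adjusted p = 0.149). The difference was -1.93, -2.48, -2.15, 3.98 and -3.19 on morphine arrays 1 to 5, and 0.23, -0.33, 5.67, -1.20 and 7.17 on saline arrays 1 to 5. Morphine array 4 was the only morphine array above the lowest saline array. Without it the change was -4.73 and passed (limma adjusted p = 0.00813 over the 34 pairs then tested). With the 63 pairs kept, it was -4.74 and also passed (limma adjusted p = 0.0334). The let-7a guide was at the floor on saline arrays 3 and 5, which had the highest differences.

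For let-7c-1* minus let-7c the change was -0.64 (SE 1.31, 95% interval -3.47 to 2.20, limma adjusted p = 0.799). Both of these arms were called higher. let-7c-1* was at the floor on saline arrays 2, 4 and 5, so the change follows the floor. It was 0.31 with a floor of 10 and -1.92 with a floor of 100. For let-7i* minus let-7i the change was 1.04 (SE 1.00, 95% interval -1.11 to 3.20, limma adjusted p = 0.450), with let-7i* at the floor on morphine arrays 1 and 2 and saline array 5.

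**Figure D4:**
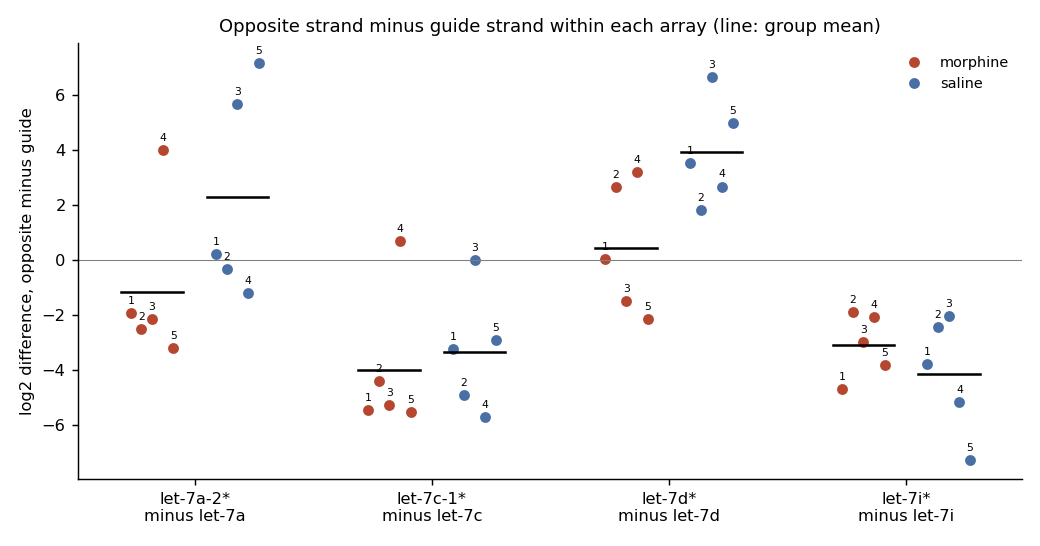
Log2 difference between opposite strand and guide strand within each array for the 4 pairs, on 5 morphine and 5 saline arrays (numbers: replicate; line: group mean). let-7d* minus let-7d averages 0.45 on morphine arrays and 3.92 on saline arrays, and morphine array 4 is the highest morphine array in 3 of the 4 pairs.

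Of 12 probes for miRNAs that accompany let-7 in its clusters (miR-99, miR-100 and miR-125 arms and miR-98*), 9 were tested. limma called 0 of them, and 0 had an unadjusted p under 0.05. Their median log2 fold change was -0.26. Within this list the smallest p-values belonged to miR-99a, a neighbour of let-7c-1 (log2 fold change 0.99, limma adjusted p = 0.420), miR-100, a neighbour of let-7a-2 (-1.04, 0.433), miR-125b-5p (0.68, 0.439) and miR-125a-3p (-0.68, 0.537).

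The list leaves out 5 probes whose genes also lie within 50000 bases of a let-7 hairpin, and these were added after their values were seen. They are miR-3588 and miR-3596a to miR-3596d, of which 3 were tested and 2 were called lower in morphine rats, beside the background of 11.6% called lower. miR-3596c, read from the DNA strand opposite the let-7e hairpin, had scaled intensities of 1516, 1319, 824, 1656 and 919.7 on morphine arrays 1 to 5. It had 2705, 3035, 2838, 4138 and 9337 on saline arrays 1 to 5. Its groups did not overlap, and saline array 5 was the highest, as for let-7a-2*. The log2 fold change was -1.70 (SE 0.47, limma adjusted p = 0.0114). miR-3596a, opposite the let-7a-2 hairpin, was dim, at 20.2 to 51.5 on morphine arrays and -325 to 412 on saline arrays. Its groups overlapped through saline array 5, and with the floor of 30 its log2 fold change was -1.88 (SE 0.69, limma adjusted p = 0.0397). The call was lost in 24 of 35 alternatives, among them both other floors. Omission of morphine array 1, 2, 3 or 5 or of saline array 2, 3 or 4 also removed it. Without morphine array 4 the call held with the tested probes kept (limma adjusted p = 0.0494) but not otherwise (0.0622). miR-3596b, opposite the let-7d hairpin, did not pass, at -0.67 on the log2 scale (limma adjusted p = 0.571). Of the 12 tested probes of both lists, 2 were lower and 0 higher, with a median log2 fold change of -0.34.

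Across all 10 arrays, the probes whose log2 values followed each strand most closely were of other families. These correlations are descriptions over arrays that share the group difference and the scaling. For let-7a-2* they were miR-211 (Pearson r = 0.97), miR-702-3p (0.95) and miR-3572 (0.95). For let-7c-1* they were miR-466b-2* (0.90), miR-103-1* (0.87) and miR-22* (0.85). For let-7d* they were miR-3557-5p (0.92), miR-675* (0.88) and miR-743b* (0.86), and for let-7i* miR-140 (0.92), miR-20a (0.80) and miR-448* (0.70). Between the arms of a hairpin, r was -0.66 for let-7a-2* and let-7a, -0.40 for let-7d* and let-7d, 0.23 for let-7c-1* and let-7c, and 0.36 for let-7i* and let-7i. With the group means taken out, r was -0.76, -0.27, -0.80 and 0.40 in the same order, so that the sign turned for let-7c-1* and let-7c. For that pair, morphine array 4 had the highest let-7c-1* and the lowest let-7c of its group. let-7c-1* was also at the floor on saline arrays 2, 4 and 5, so this r leans on few arrays.

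**Figure D5:**
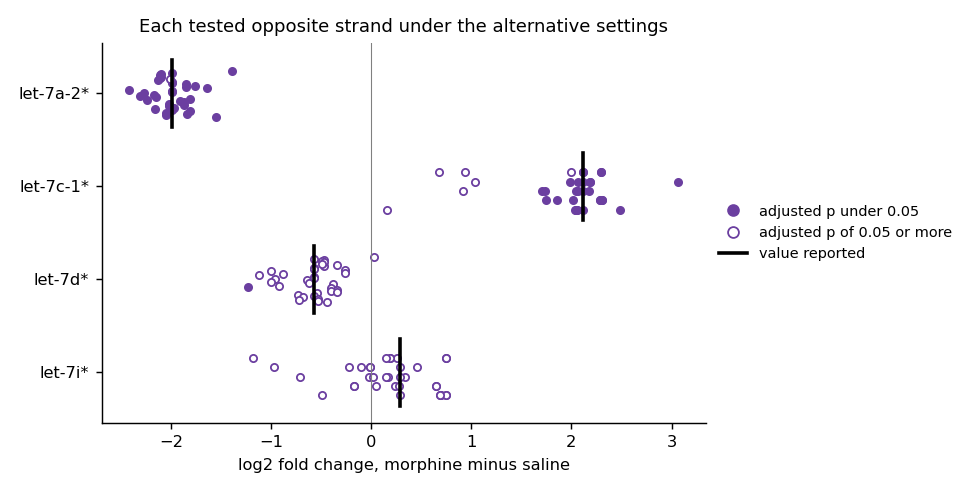
Log2 fold change (morphine minus saline) of the 4 tested opposite strands under each alternative setting (circles, filled where the adjusted p is under 0.05) and as reported (black bars). let-7a-2* stays between -2.42 and -1.39 and let-7c-1* between 0.16 and 3.07, while let-7d* and let-7i* take values on both sides of 0.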

How the data were processed

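The authors marked the RNA of each rat with the dye Hy3 and hybridized it to a 1-color miRCURY array with locked nucleic acid probes (v.18.0). Slides were scanned on an Axon GenePix scanner and spots were extracted in GenePix Pro 6.0. The deposited intensity values are the foreground and background-subtracted signals of each spot on a linear scale, not scaled between arrays. How the local background was estimated is not given in the sources used here, and no slide or scan batch was given.

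Spots of a probe were averaged. The scaling factor of an array was its median over 120 rat probes that reached 30 on every array, and the geometric mean of the factors restored the intensity scale. Values were floored at 30 and log2-transformed. limma 3.58.1 (R 4.3.3) was used for 301 rat probes that reached 30, before scaling, on 5 arrays or more, with lmFit, eBayes and two-sided p-values adjusted by Benjamini-Hochberg. Arm differences were fitted in the same way over the 63 pairs with both arms tested. Exact permutation tests were two-sided (SciPy). The limma step was tested on simulated data.

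Members, lists and tests were chosen with earlier results of these data known. Named were all let-7 strands, up to 4 cluster neighbours with the smallest p and, for each tested opposite strand, the 3 probes most correlated with it. Each array held the RNA of a separate rat, per the methods of the study. The number of arrays limits the precision, and the depth of an array is its signal over background. Alternatives varied the background correction, scaling, floor, filter and test, added the replicate number as a block, or dropped single arrays.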

Additional observations from a re-analysis of the deposited data

Results flagged for a closer look

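An array was marked when its gap to the next one exceeded 0.71 of the range of its group of 5 (Dixon's test). For normally distributed values, chance does this in about 1 in 20 groups. The values used were intensities on a linear scale, and the groups share arrays, so that rate is only a guide. Of 34 groups examined over the 9 opposite and 8 guide strand probes, 3 were marked. let-7a-2* was 4329 (scaled intensity) on saline array 5, a gap of 0.854 of the range, and the let-7i guide was 4533 on the same array, a gap of 0.845. let-7c-1* was 453 on morphine array 4, a gap of 0.751. With saline array 5 or morphine array 4 left out, let-7a-2* and let-7c-1* still passed the limma test in the same direction.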

How the results depend on the processing

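let-7a-2* stayed lower in morphine rats under all 36 alternatives, with log2 fold changes of -2.42 to -1.39, and kept its call in 35 of them. Of the alternatives, 20 dropped a single array, each array with and without the tested probes kept. Others changed only the test, floor or filter and left its fold change as reported, so the alternatives are not separate checks. let-7c-1* stayed higher under all 35 alternatives that retained its probe and kept its call in 29. Relative to the median of all tested probes, which moved between -0.28 and 0.98 with the setting, let-7a-2* was -2.70 to -1.34 and let-7c-1* 0.37 to 2.43. Signal over background limits the dim strands, since a value below 30 carries no order.

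The call of let-7c-1* was lost with normexp background correction (0.16), quantile normalization (1.04), cyclic loess (0.94), a negative-control baseline (0.92) and a floor of 100 (0.67). The arm difference of let-7d* lost its call under the same settings (-1.92, -3.54, -2.42, -2.62 and -2.88). let-7i* was below 0 with normexp (-0.49), quantile (-0.97), loess (-1.18) and the negative-control baseline (-0.71), and its arm difference with the first of these 3 (-0.087, -0.15 and -0.49). Scaling over all probes gave 0.033 for let-7d* and 0.37 for let-7b. Array weights, a fit that stopped before its convergence tolerance, gave -1.23 for let-7d*, past the threshold, and 0.64 for let-7b and 0.24 for let-7i. The arm difference of let-7c-1* was 0.31 with a floor of 10. Exact permutation left the arm difference of let-7d* at -3.47, without a call. miR-3596c kept its call in 35 of 36 alternatives and miR-3596a in 11 of 35, both without a change of direction. Causes were not tested.

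Of the guides, 2 were called higher with normexp, quantile, loess and the negative-control baseline. The count was 3 with a floor of 100 and 1 with the filter on at least 1 array. The filter on all 10 arrays tested only let-7b, let-7c, let-7e and let-7i. Of these, let-7c and let-7e were called higher (limma adjusted p = 0.0443 and 0.0286). Over all tested probes, against 98 higher and 35 lower of 301 as reported, normexp gave 45 higher. Quantile gave 65 higher and 54 lower, loess 55 and 57, and scaling over all probes 22 lower, each of 301. The filter on all 10 arrays gave 19 and 14 of only 120 probes, and the negative-control baseline 81 lower of 422. These last counts are therefore not directly comparable with those reported.

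The methods' t-test gave -2.01 for let-7a-2* (adjusted p = 0.195) and 2.00 for let-7c-1* (0.436), neither past the threshold. This test left out arrays at 0 or less and covered 254 probes, with only saline arrays 1 and 3 for let-7c-1*. It called 3 probes higher and 4 lower after adjustment, and 0 guides. At an unadjusted 0.05 with a 2-fold change it called 32 higher and 25 lower.

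With an array left out, also with the tested probes kept (chosen after seeing the data), let-7i* ranged over -0.22 to 0.75, the arm differences of let-7a-2* over -4.74 to -2.25, of let-7c-1* over -1.83 to 0.20 and of let-7d* over -4.16 to -2.80. let-7b ranged over -0.67 to 0.12 and let-7i over -1.24 to 0.040. The guides called higher numbered 0 to 5, and all probes called 38 to 100 higher and 19 to 39 lower, of 239 to 301 tested. Without any one array, let-7a-2* and let-7c-1* kept their calls.

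Replicate numbers were shared by the groups, but same-numbered arrays did not deviate together (correlations of -0.40 to 0.05). With the replicate block, the arm difference of let-7d* was -3.47 (adjusted p = 0.0948) and 0 guides were called, while let-7a-2* and let-7c-1* kept their calls.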
